A study of Mus musculus with 16 samples.

Results

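Potassium channel genes were followed in whole brains of adolescent mice that had drunk water, nicotine, ethanol or both. The members were the genes whose symbol begins with Kcn followed by a family letter and a number, Kcnj13 excepted, and whose mean FPKM over the 16 mice was at least 0.5. FPKM are fragments per kilobase of transcript scaled to library size. Of the 24062 genes counted, 96 had such a symbol, 19 of them were under the floor, 1 was the exception, and 76 were members. The floor uses the level over all mice and no difference between groups. Just inside it were Kcnh6 at 0.518 FPKM and Kcnj5 at 0.551 FPKM, and just outside were Kcnd3os at 0.467 FPKM and Kcnk5 at 0.449 FPKM.

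All 16 mice were female C57BL/6J, an inbred laboratory strain, and were dissected at postnatal day 45 with the cerebellum left on the brain. WW mice had water throughout, NW mice had nicotine at 200 µg/ml for 22 h per day, Water-Ethanol mice had 20% v/v ethanol in short sessions in the dark on postnatal days 42 to 45, and NE mice had both. The sessions lasted 2 h and, on the last day, 4 h, and mice without ethanol had water in them. There were 4 mice per group, each with 1 library, and the Water-Ethanol group is marked by its initials in the plots. Each drug was the only fluid offered while it was given, and the amount each mouse drank was not fixed. Nicotine began before the ethanol sessions and was taken away during each session. The last session ended at dissection, so NW and NE brains were taken after 4 h without nicotine. The study names withdrawal from nicotine as a possible part of its nicotine results. Total counts per mouse ran from 27100352 to 32880979, and the members took 0.585% to 0.644% of them.

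Potassium channels let potassium ions out of the cell, or in the case of the inward rectifiers preferentially in, and so set the resting potential, end the action potential and limit repetitive firing. The pore is formed by alpha subunits of several families. The voltage-gated Kv1 to Kv4, Kv7 and EAG-type channels open on depolarization, calcium- and sodium-activated channels respond to ions that enter during firing, and K2P channels carry a leak current. Modifier alpha subunits form no working channel alone but join Kv2 subunits and change their gating. Beta, KChIP and Kcne proteins are accessory subunits. Large-conductance calcium-activated (BK) channels, encoded by Kcnma1, and inward rectifiers coupled to G proteins are known molecular targets of ethanol.

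The members were expressed from 0.518 to 111 FPKM, and the highest gene of every family lay above the floor by several fold (the plot of FPKM by family). By mean FPKM, 7 members were at 50 or more, 35 between 10 and 50, 28 between 1 and 10 and 6 between 0.5 and 1. The highest level was that of Kcnab2, a Kv beta subunit, at 111 ± 3.39 FPKM (SD, n = 16 mice). Kcnj10, the inward rectifier of astrocytes, followed at 96.5 FPKM. Kcnc1, a Kv3 gene that serves fast firing, reached 69.7 FPKM. Leading members of other families were Kcnk1 of the K2P channels at 53.1 FPKM, Kcna2 of Kv1 at 49.0 FPKM, Kcnip2 of the KChIP subunits at 48.5 FPKM and Kcnd2 of Kv4 at 39.9 FPKM. Kcnmb4, the neuronal BK beta subunit, had 36.7 FPKM, Kcnf1 of the modifier subunits 31.4 FPKM, Kcnma1 30.6 FPKM, Kcnh3 of the EAG-type channels 25.8 FPKM, Kcnt1 of the sodium-activated channels 24.7 FPKM, Kcnn2 of the small-conductance channels 16.8 FPKM and Kcne1l of the Kcne subunits 3.92 FPKM. Summed over members, the 12 inward rectifiers had 267 FPKM, the 3 Kv beta subunits 186 FPKM and the 4 Kv3 genes 181 FPKM.

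**Figure D1:**
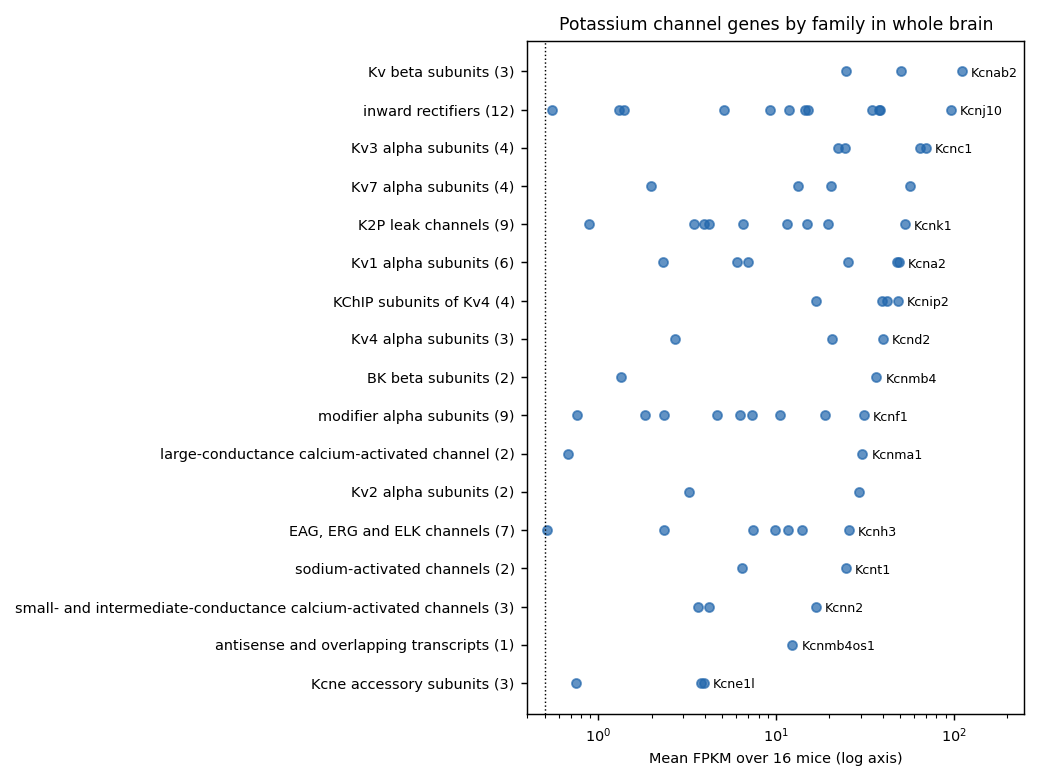
Mean FPKM over 16 mice (log axis) of each of the 76 potassium channel genes, 1 point per gene, by family with the number of members in parentheses; the dotted line is the floor of 0.5. The highest gene is named for 15 of the 17 families, from Kcne1l at 3.92 to Kcnab2 at 111 FPKM.

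Most members varied little between mice. The coefficient of variation of FPKM over the 16 mice had a median of 8.64%, with Kcnab3, a Kv beta subunit, lowest at 2.71% and Kcnj8 highest at 21.3%. One member was not comparable between the tables. Kcnmb4os1, an antisense transcript (chromosome 10, 116418121 to 116421235), was covered by 3 to 22 counts per mouse but listed at a mean of 12.4 FPKM. Its exons share 286 bases with those of Kcnmb4 on the opposite strand, so its level is uncertain, and it was tested only in the fit of all 16 mice, where it was not called. Without a stated strand setting for the counts, reads of Kcnd3, Kcnh3, Kcnip4, Kcnk3, Kcnmb4, Kcnn2 and Kcnt2 in exon stretches that another gene overlaps on the opposite strand cannot be assigned with certainty.

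Some members of like function are neighbours on a chromosome. Kcnj9 and Kcnj10, both inward rectifiers, lie 11.9 kb apart on chromosome 1 on opposite strands at 37.8 and 96.5 FPKM. On chromosome 6 the Kv1 genes Kcna5, Kcna1 and Kcna6 follow each other at 2.32, 48.1 and 25.3 FPKM, and on chromosome 3 Kcna3 and Kcna2 lie 63.4 kb apart at 6.07 and 49.0 FPKM.

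The sequences before the start are shown for Kcnc1 and Kcnj8, the 2 of the 4 members called for ethanol that had an entry among the RefSeq promoters used here, to show how unlike they are. Each is the 250 bases upstream of the RefSeq start on GRCm38.p6, 5′ to 3′ on the strand of the gene, with GC boxes (GGGCGG or its reverse complement CCGCCC) in capitals. Kcnc1 lies on the plus strand (chr7:46396218-46396467) and Kcnj8 on the minus strand (chr6:142571615-142571864). The Kcnj8 stretch does not adjoin the gene end of the count table, 142571356. A short sequence after the RefSeq start was looked for in GENCODE transcripts of the gene. It was found for Kcnj8 and not for Kcnc1, while the Kcnc1 stretch adjoins the gene start of the count table, 46396468. The checks disagree for both genes, so neither start is certain.
Kcnc1: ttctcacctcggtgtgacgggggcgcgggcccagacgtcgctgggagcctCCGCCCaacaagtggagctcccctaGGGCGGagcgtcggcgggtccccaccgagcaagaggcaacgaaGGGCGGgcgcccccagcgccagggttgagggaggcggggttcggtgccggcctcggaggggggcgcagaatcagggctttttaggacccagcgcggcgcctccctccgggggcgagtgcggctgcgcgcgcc
Kcnj8: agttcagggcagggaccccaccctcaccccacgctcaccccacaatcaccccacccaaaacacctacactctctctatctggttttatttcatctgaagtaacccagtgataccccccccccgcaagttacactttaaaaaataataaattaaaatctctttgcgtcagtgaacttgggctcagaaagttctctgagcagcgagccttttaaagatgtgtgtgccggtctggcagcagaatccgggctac
The Kcnc1 stretch had 74.4% G or C, 30 CpG dinucleotides and 3 GC boxes, and the Kcnj8 stretch 49.2%, 6 and 0. Of the 76 members 53 had a promoter entry. A GC box was found on either strand in 35 of these 53 (66.0%) and in 35.4% of all 27025 genes with an entry, which include noncoding genes. The cAMP response element TGACGTCA was in 0 of the 53 and in 1.77% of all, and TATAAA or its reverse complement in 2 of the 53 (3.77%) and in 14.3% of all. These are counts of letters and not of bound sites.

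For the tests, TMM factors were applied to the counts and edgeR's quasi-likelihood test was run, with Benjamini-Hochberg adjustment over all genes tested. A member is said to have risen or fallen only at an adjusted p-value under 0.05, and p-values quoted with a fold change are adjusted ones of that test. The values given per mouse are normalized counts, and log2 fold changes carry their standard error. In 4 against 4 mice the exact two-sided permutation test cannot go below p = 0.0286. In whole tissue, fewer cells of a type and less RNA per cell cannot be told apart.

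The comparison of Water-Ethanol with WW asks what drinking ethanol did on its own. Of 75 members tested 1 fell, Kcnv1, and none rose, against 0.457% of all 15323 genes tested that were called in either direction. At an unadjusted p-value under 0.05 there were 21 members (28%), 6 of them higher and 15 lower, against 19.3% of all genes, of which 1579 were higher and 1386 lower. The 4 mice of one group all lay beyond the other 4 in 10 members (13.3%), 1 higher and 9 lower, against 10.8% of all genes. The median log2 fold change was -0.03 over the members and 0.00 over all genes.

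In NE against WW 0 of 75 members were called, against 0.313% of all genes. DESeq2 called 2 there, Kcnc1 and Kcnv1, or 2.67% of members against 3.38% of all genes. At an unadjusted p-value under 0.05 there were 13 members (17.3%), 8 higher and 5 lower, against 17.5% of all genes, so the share was near the background. Groups did not overlap in 7 members (9.33%), 4 higher and 3 lower, against 10.7% of all. Over all 16 mice, the ethanol effect is the mean of the differences of Water-Ethanol from WW and of NE from NW. It was called for 4 of 76 members, against 4.50% of all 15592 genes. Kcns2, Kcnj8 and Kcnv1 fell and Kcnc1 rose. At an unadjusted p-value under 0.05 there were 12 members (15.8%), 7 higher and 5 lower, against 22.9% of all genes.

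**Figure D2:**
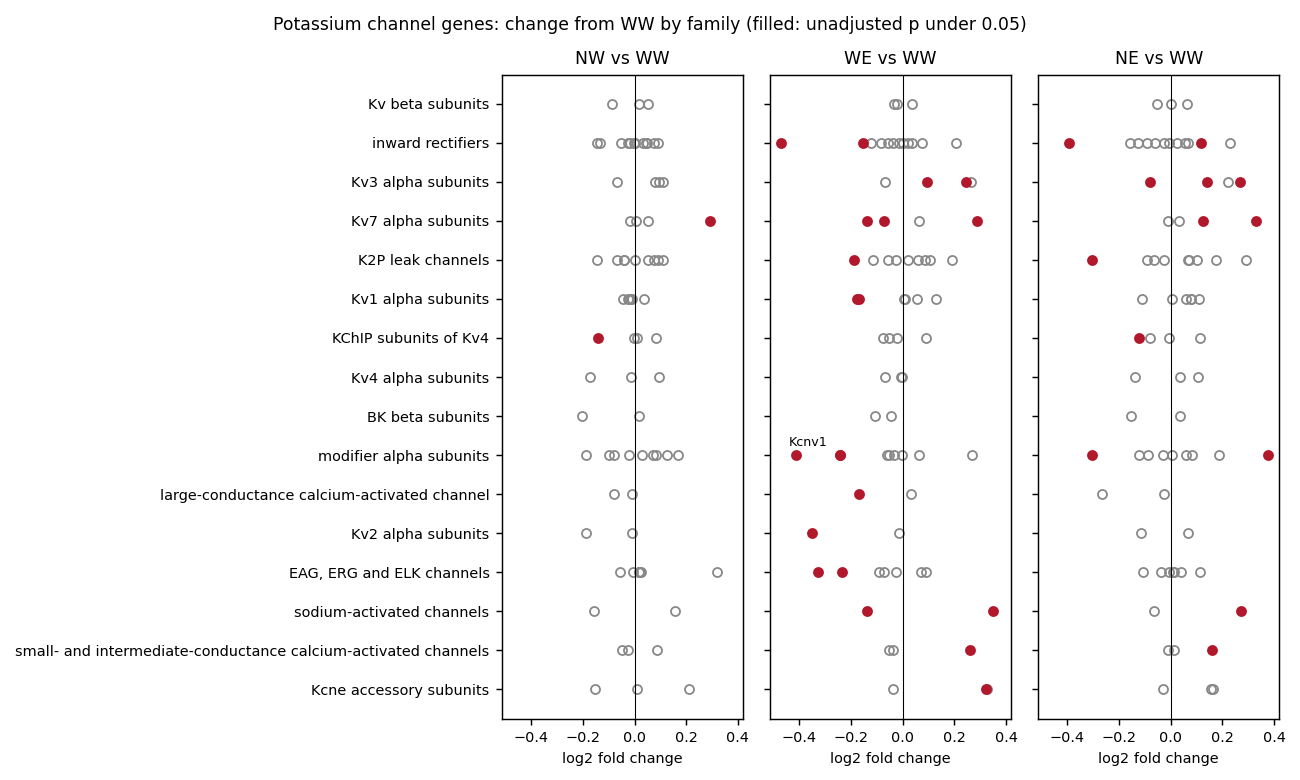
log2 fold change of each of 75 potassium channel genes from WW (x axis) by family, for NW, Water-Ethanol and NE; filled points have an unadjusted p-value under 0.05 and the 1 gene with an adjusted p-value under 0.05 is named. Filled points number 2, 21 and 13 in the panels from left to right, and all values lie between -0.47 and 0.38.

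Of the 9 modifier alpha subunits 2 were called for the ethanol effect, Kcnv1 and Kcns2, against 4.50% of all genes. A count on 9 genes says little of the family. Kcnv1, or Kv8.1, is a silent subunit that joins Kv2 channels and is known from cortical neurons, and lies on chromosome 15 from 45106284 to 45114934. Its normalized counts were 2678, 2883, 2725 and 2967 in WW, 1834, 2551, 2861 and 2641 in NW, 2035, 2101, 1899 and 2394 in Water-Ethanol mice, and 2058, 2560, 2067 and 2415 in NE. All Water-Ethanol and all NE mice lay below all WW mice, while 1 NW mouse was within the WW range and NW replicate 7 had the lowest value of the 16. The log2 fold change was -0.41 ± 0.06 in Water-Ethanol (adjusted p = 0.0357, edgeR's quasi-likelihood test) and -0.31 ± 0.07 in NE (adjusted p = 0.0735), and the exact permutation test gave p = 0.0286 in both. Kcnv1 was the only member whose mice lay beyond all WW mice in more than 1 treated group, and both comparisons share the WW mice. The share of all genes that did so was not counted, so this does not set Kcnv1 apart. In the single comparisons 10.8% and 10.7% of all genes had groups that did not overlap. The ethanol effect was -0.27 ± 0.07 (adjusted p = 0.0489), and it was -0.21 (adjusted p = 0.0813) without WW replicate 21 and NW replicate 10, the mice of low cerebellum score described below. With 1 mouse left out at a time it was called in 3 of 16 fits. The summed normalized counts of 6 markers of forebrain excitatory neurons ran from 103610 to 124100 in WW, 98939 to 105540 in Water-Ethanol and 101330 to 113760 in NE. The WW maximum was that of WW replicate 21, and without the 2 mice of low cerebellum score the highest sum was 113760. Of the 6 markers 0 were called for ethanol, and the part of cell makeup in the Kcnv1 difference was not tested.

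Kcns2, or Kv9.2, another silent partner of Kv2 channels, lies on chromosome 15 from 34837355 to 34843407. Its normalized counts were 1219, 1116, 1108 and 1112 in WW, 1050, 1212, 1133 and 1261 in NW, 951, 952, 886 and 1052 in Water-Ethanol mice, and 974, 1135, 970 and 1103 in NE. Every Water-Ethanol mouse was below every WW mouse, and the NE mice overlapped both control groups. The ethanol effect was -0.20 ± 0.05 (adjusted p = 0.0241, edgeR's quasi-likelihood test), and the pairwise log2 fold changes were -0.24 ± 0.06 in Water-Ethanol (adjusted p = 0.0739) and -0.12 ± 0.06 in NE (adjusted p = 0.327). Of the 25 other settings and left-out mice 21 kept it under the threshold. Among the 9 modifier subunits 7 were lower in Water-Ethanol than in WW and 3 of these had an unadjusted p-value under 0.05, Kcnv1, Kcns2 and Kcns1. Over all members 45 of 75 were lower, and 19.3% of all genes had an unadjusted p-value under 0.05, so on 9 genes these counts say little of the family. Kcng3, a further modifier subunit, was at 0.38 ± 0.11 in NE (adjusted p = 0.141), with 66.8 ± 4.99 normalized counts in WW and 86.5 ± 5.24 in NE (SD, n = 4).

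Of the Kv2 pore subunits that these modifiers join, Kcnb2 did not pass the adjusted threshold here. The study called Kcnb2 lower in Water-Ethanol than in WW with Cuffdiff, at a q under 0.05. It had 622, 599.9, 566 and 539.7 normalized counts in WW, 425, 559, 562 and 499.9 in NW, 507, 459, 402 and 448 in Water-Ethanol mice and 509, 599.9, 448 and 591 in NE. The Water-Ethanol mice all lay below the WW mice and the NE mice spread over both ranges. The log2 fold change in Water-Ethanol was -0.35 ± 0.07 (adjusted p = 0.0543) and in NE -0.12 ± 0.09 (adjusted p = 0.539). Amigo1, which encodes an auxiliary protein of Kv2 channels, had 3706 ± 60.5 normalized counts in WW and 3940 ± 76.7 in NE (adjusted p = 0.181).

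Kcnc1, or Kv3.1, carries the fast delayed rectifier of fast-spiking neurons and of cerebellar granule cells, and lies on chromosome 7 from 46396468 to 46438704. Normalized counts were 10852, 9828, 9861 and 7890 in WW, 10960, 10430, 9290 and 10407 in NW, 11239, 10345, 12414 and 11442 in Water-Ethanol mice, and 11889, 10993, 12105 and 11202 in NE. All NE mice were above all WW and NW mice, while the lowest Water-Ethanol mouse was within the WW range. The ethanol effect was 0.21 ± 0.05 (adjusted p = 0.0350, edgeR's quasi-likelihood test). The pairwise log2 fold changes were 0.25 ± 0.08 in Water-Ethanol (adjusted p = 0.140) and 0.27 ± 0.08 in NE (adjusted p = 0.133). The lowest mouse of each control group was the one of low cerebellum score. Without these 2 mice, a choice made after seeing the data, the ethanol effect was 0.14 ± 0.04 and still under the threshold (adjusted p = 0.0368), and with 1 mouse left out at a time it was called in 7 of 16 fits. Of the other Kv3 genes Kcnc4 had 1969 ± 69.7 normalized counts in WW and 2168 ± 87.6 in NE, a log2 fold change of 0.14 ± 0.04 (adjusted p = 0.136), and Kcnc2 was at -0.08 ± 0.04 in NE (adjusted p = 0.263).

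Kcnj8 encodes Kir6.1, the pore of the ATP-sensitive potassium channel of vascular smooth muscle and pericytes, and lies on chromosome 6 from 142564939 to 142571356. It was the member with the lowest count of the 4 called. Its normalized counts were 103, 76.0, 116 and 85.9 in WW, 103, 105, 66.5 and 98.7 in NW, 69.0, 74.3, 56.1 and 74.3 in Water-Ethanol mice and 64.6, 77.9, 74.4 and 73.0 in NE. Every Water-Ethanol mouse lay below every WW mouse, and in NE 1 of the 4 was within the WW range. The ethanol effect was -0.42 ± 0.11 (adjusted p = 0.0375, edgeR's quasi-likelihood test). The pairwise log2 fold changes were -0.47 ± 0.16 in Water-Ethanol (adjusted p = 0.139) and -0.39 ± 0.15 in NE (adjusted p = 0.201). With 1 mouse left out at a time it lay between -0.48 and -0.36 and was called in 5 of 16 fits, with adjusted p-values of up to 0.087. Without the 2 mice of low cerebellum score it was -0.51 ± 0.10 (adjusted p = 0.00871).

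Some markers of vascular and glial cells were also lower in mice with ethanol. The summed normalized counts of 6 mural markers were 5989 to 6374 in WW and 5906 to 6562 in NW, and 5497 to 5614 in Water-Ethanol and 5520 to 5753 in NE, so that mice with and without ethanol did not overlap. Of these 6 genes 2 fell with ethanol, Vtn at -0.22 ± 0.04 and Pdgfrb at -0.15 ± 0.03, and none was at 0. Endothelial markers summed to 8074 to 8526 in WW, 7731 to 8317 in NW, 6927 to 7864 in Water-Ethanol and 7218 to 7924 in NE, and 2 of 5 fell, Slco1a4 and Itm2a, while Cldn5 was at 0.04 and Pecam1 at -0.06. Microglia markers summed to 6114 to 8047 in WW, 6269 to 6904 in NW, 5976 to 6422 in Water-Ethanol and 5568 to 6843 in NE, and 3 of 6 fell. The WW maxima of the endothelial and microglia sums were those of WW replicate 21, of low cerebellum score. Without it and NW replicate 10 the highest sums were 8407 for endothelial and 7009 for microglia markers. Astrocyte and oligodendrocyte markers had 1 of 6 called each, both lower. The median ethanol effect was -0.20 for microglia, -0.12 for mural, -0.10 for oligodendrocyte, -0.09 for astrocyte and -0.07 for endothelial markers. Lower medians were not particular to these lists: meninges -0.17, olfactory bulb -0.16, forebrain excitatory -0.09, striatum -0.07 and fast-spiking interneuron -0.05. Cerebellum was at 0.18, hypothalamus at 0.07 and choroid plexus at 0.03. Of all genes 4.50% were called for ethanol. The part of cell makeup in the Kcnj8 difference was not tested. Abcc9, the sulfonylurea receptor that pairs with Kcnj8 in vessels, had 458 ± 10.2 normalized counts in WW, 415 ± 37.1 in Water-Ethanol and 397 ± 13.5 in NE, an ethanol effect of -0.13 ± 0.04 (adjusted p = 0.0949). Abcc8, the receptor of the neuronal channel with Kcnj11, rose with ethanol at 0.27 ± 0.06 (adjusted p = 0.0221), with 889 ± 118 normalized counts in WW and 1161 ± 117 in Water-Ethanol. The lowest Abcc8 value of the 16 mice was 753 in WW replicate 21, and the lowest in NW was 898 in NW replicate 10. Both are the mice of low cerebellum score. Kcnj11 itself had 1219 ± 69.1 normalized counts in WW, 1232 ± 64.7 in Water-Ethanol and 1318 ± 12.1 in NE, a log2 fold change of 0.12 ± 0.05 in NE (adjusted p = 0.237).

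**Figure D3:**
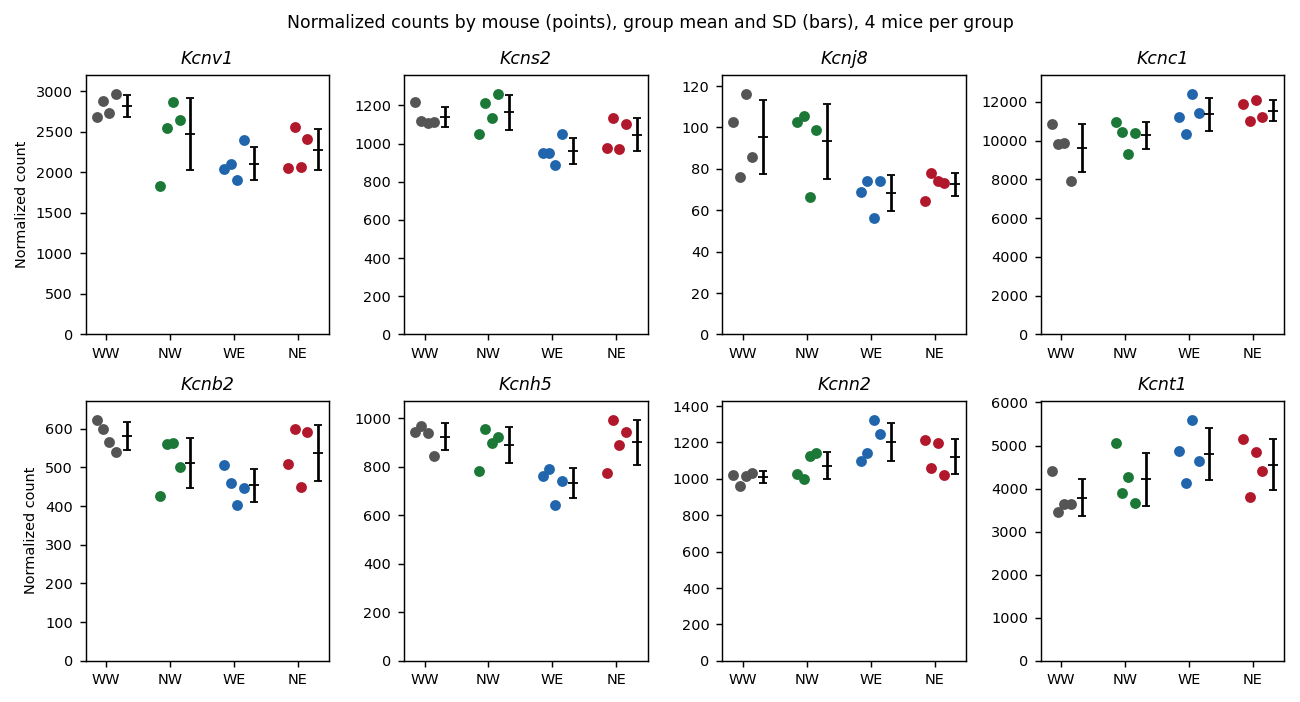
Normalized counts (y axis, from 0) of 8 potassium channel genes in each mouse, 1 point per mouse, for WW, NW, the Water-Ethanol group and NE, with the group mean and SD as a bar beside the points. All Water-Ethanol mice lie below all WW mice in Kcnv1, Kcns2, Kcnj8, Kcnb2 and Kcnh5 and above them in Kcnn2.

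Among the EAG-type channels, Kcnh5, or Eag2, had 943, 970, 939.8 and 844 normalized counts in WW, 783, 955, 898 and 923 in NW, 760, 789.9, 643 and 739.6 in Water-Ethanol mice and 776, 993, 890 and 944 in NE. Water-Ethanol mice lay apart from WW mice, and NE mice reached across the whole WW range. The log2 fold change in Water-Ethanol was -0.33 ± 0.07 (adjusted p = 0.0539), and in NE -0.04 ± 0.07 (adjusted p = 0.837). Kcnh7, or Erg3, which opposes repetitive firing, was at -0.23 ± 0.06 in Water-Ethanol (adjusted p = 0.085), and its groups did not overlap there.

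None of the calcium- and sodium-activated channel genes passed the threshold in a comparison of 2 groups. Kcnn2, or SK2, of the medium afterhyperpolarization, had 1023, 959.5, 1018 and 1033 normalized counts in WW, 1024, 997, 1127 and 1145 in NW, 1096, 1142, 1323 and 1249 in Water-Ethanol mice and 1212, 1057, 1199.6 and 1019.7 in NE. It was the only member whose Water-Ethanol mice all lay above the WW mice, at 0.26 ± 0.06 (adjusted p = 0.072), and the ethanol effect was 0.16 ± 0.05 (adjusted p = 0.0615). Kcnt1, or Slack, a sodium-activated channel, had 4414, 3460, 3638 and 3638 normalized counts in WW, 5062, 3895, 4271 and 3656 in NW, 4863, 4123, 5591 and 4652 in Water-Ethanol mice and 5151, 3812, 4854 and 4418 in NE. WW replicate 18 lay within the Water-Ethanol range, and the log2 fold change was 0.35 ± 0.09 (adjusted p = 0.085). The study called Kcnt1 higher in Water-Ethanol than in WW with Cuffdiff, at a q under 0.05. Kcnma1, the pore of the BK channel, was at -0.17 ± 0.05 in Water-Ethanol (adjusted p = 0.121), with 4869 ± 405 normalized counts in WW against 4311 ± 119.

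Kcnd2, or Kv4.2, of the dendritic A current, was named by the study in a set of co-expressed genes lower in NW than in WW. Kcnd2 passed the threshold in no comparison in the main fits by edgeR's test, with all mice kept and no covariate. Its normalized counts were 6026, 6301, 5881 and 4570 in WW, 4905, 5423, 4526 and 5357 in NW, 5520, 5575, 5091 and 5438 in Water-Ethanol mice and 5267, 5080, 4986 and 5340 in NE. WW replicate 21 was below all Water-Ethanol and NE mice, and the other 3 WW mice were above all treated mice. With the cerebellum score as a covariate Kcnd2 was lower in NW at -0.21 ± 0.04 (adjusted p = 0.0204) and in NE at -0.21 ± 0.04 (adjusted p = 0.0207), and in Water-Ethanol it was at -0.15 ± 0.04 (adjusted p = 0.0715). That fit called 1.5% of all genes in NW, 1.64% in NE and 1.77% in Water-Ethanol. Kcnip4, a KChIP subunit of Kv4 channels, had 2293 ± 154 normalized counts in WW, 2079 ± 165 in NW, 2250 ± 81.1 in Water-Ethanol mice and 2101 ± 39.8 in NE.

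NE was set against Water-Ethanol to ask what nicotine added to ethanol. The study reported that NE mice drank more ethanol than Water-Ethanol mice on the last day and had higher blood ethanol. Nicotine and this larger ethanol intake cannot be told apart in NE against Water-Ethanol. In that comparison 0 of 75 members were called, against 0% of all genes, and DESeq2 called 0 members too, against 0.0131% of all genes. There were 14 members (18.7%) that had an unadjusted p-value under 0.05, 11 of them higher and 3 lower, against 5.80% of all genes. The smallest p-values belonged to Kcnh5 at 0.29 ± 0.08, Kcnma1 at 0.14 ± 0.05, Kcnj6 at 0.18 ± 0.06, Kcnq3 at 0.17 ± 0.06 and Kcnh7 at 0.23 ± 0.08, each with an adjusted p of 0.834. Kcnb2, 3 EAG-type genes and 2 inward rectifiers were among those with higher counts in NE. In NE against NW, which gives ethanol in mice that drank nicotine, edgeR and DESeq2 called 0 members, against 0% and 0.612% of all genes. There, 3 members (4%) had an unadjusted p-value under 0.05, against 11.9% of all genes: Kcnc1 at 0.17 ± 0.05, Kcnj8 at -0.37 ± 0.15 and Kcns2 at -0.16 ± 0.07.

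The interaction asks whether the ethanol difference depended on nicotine, although ethanol intake also differed between NE and Water-Ethanol mice. It was called by edgeR for 0 of 76 members and for 0% of all 15592 genes, and DESeq2 called 0 members, against 0.0128% of all genes. There were 3 members (3.95%) with an unadjusted p-value under 0.05, against 6.76% of all genes. These were Kcnh5 at 0.35 ± 0.11, Kcnb2 at 0.43 ± 0.14 and Kcnma1 at 0.23 ± 0.10, with adjusted p-values of 0.66 to 0.71 in edgeR's quasi-likelihood test. A difference between the ethanol response with and without nicotine was therefore not shown for any member.

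NW against WW sets mice that drank nicotine alone, 4 h after it was taken away, against mice on water. It gave 0 called members of 75, against 0% of all genes, and DESeq2 called 0 members, against 0.802% of all genes. An unadjusted p-value under 0.05 was reached by 2 members (2.67%), against 8.44% of all genes, and groups did not overlap in 1 (1.33%), against 5.98%. The nicotine effect over all 16 mice was likewise called for 0 of 76 members by edgeR and DESeq2, against 0% and 0.667% of all genes, with 8 members (10.5%) at an unadjusted p-value under 0.05, 4 higher and 4 lower, against 10.3% of all. Kcnip4 had the smallest, at -0.12 ± 0.04 (adjusted p = 0.283), followed by Kcnj11 at 0.09 ± 0.03, Kcnj16 at -0.11 ± 0.04 and Kcng3 at 0.22 ± 0.09.

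The brains differed in cerebellar RNA, and some members lay apart in the 2 mice with the least of it. The score is the mean centred log2 level of 12 cerebellum markers. It was -1.32 in WW replicate 21 and -0.87 in NW replicate 10, and between 0.06 and 0.26 in the other 14 mice. All 12 markers had their 2 lowest values in these mice, among them Gabra6, the granule cell GABA receptor subunit, with 1069 and 1651 normalized counts against 3418 to 4497 in the others. Of the 14 marker lists, no measured marker was at 0 in every mouse, but the pituitary markers Prl and Gh were at 0 in most mice. Summed pituitary markers were 502 in NW replicate 10 and at most 95.2 in the others. WW replicate 21 and NW replicate 10 also had the lowest summed choroid plexus markers, 34651 and 30487 against 36513 to 45479. Their summed forebrain excitatory markers were the highest, 124100 and 123210 against at most 113760. Which of these differences went with the members was not tested. In both mice 11 of 76 members were below, and 6 above, all 14 others, against 5.34% and 2.98% of all genes. Kcng4, a modifier subunit, had 535 normalized counts in WW replicate 21 and 628 in NW replicate 10, against 1083 to 1341 in the other mice. The inward rectifier gene Kcnj12 had 762 and 822 against 1111 to 1346, and the K2P channel gene Kcnk10 156 and 170.0 against 238 to 301. Kcne2, Kcnk3, Kcnj14, Kcnd2, Kcnc1, Kcna1 and Kcnh2 were also below, and Kcnc2, Kcnip2, Kcnk6, Kcnf1, Kcnj4 and Kcnh3 were above. The mice were picked out by their marker scores after the data were seen. Both were in groups without ethanol, and less cerebellar tissue and less RNA per cell of it cannot be told apart.

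**Figure D4:**
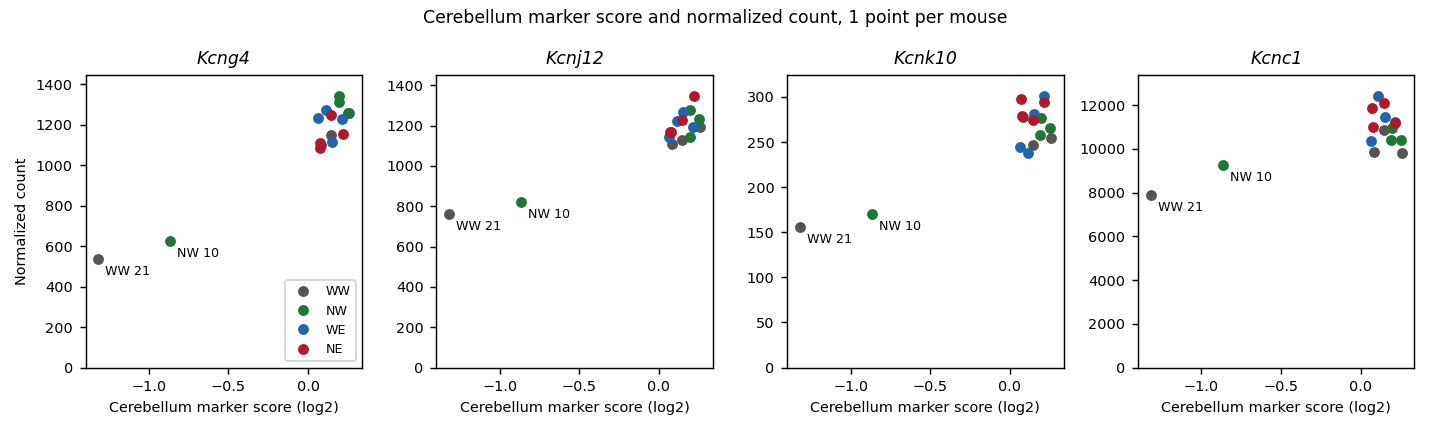
Cerebellum marker score (x axis, mean centred log2 level of 12 markers) against normalized count (y axis, from 0) of Kcng4, Kcnj12, Kcnk10 and Kcnc1, 1 point per mouse, coloured by group. WW replicate 21 and NW replicate 10 lie apart at scores of -1.32 and -0.87 and have the lowest count in each panel.

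The number of members called turned on single mice, as did the number over all genes. Without WW replicate 21, the Water-Ethanol comparison called 8 members in place of 1, and 5.17% of all genes in place of 0.457%. The members were Kcnma1 at -0.23, Kcnv1 at -0.39, Kcnh7, Kcnh5 at -0.37, Kcnb2 at -0.39, Kcnn2 at 0.27, Kcns2 and Kcnd2 at -0.16. The NE comparison then called 2 in place of 0, against 1.84% of all genes: Kcnd2 at -0.23 (adjusted p = 0.0246, edgeR's quasi-likelihood test) and Kcnip4 at -0.17 (adjusted p = 0.0417). Conversely, the Water-Ethanol comparison called 0 members without any one of WW replicates 19 and 20 or Water-Ethanol replicates 13, 14 and 15. Those fits called only 0 or 1 of all 15401 to 15418 genes tested. The same comparison called 7 members with DESeq2, against 3.94% of all genes, and 0 with limma on FPKM, against 0% of all genes. Water-Ethanol replicate 15 was the Water-Ethanol mouse farthest from WW in all 8 genes plotted by mouse, and it had the lowest olfactory bulb marker score of the 16 mice, -0.75. Without it the ethanol effect over all mice called 0 members, against 1.96% of all genes. With the cerebellum and olfactory bulb scores as covariates Kcnj8 at -0.46 and Kcns2 at -0.20 were called, against 3.46% of all genes, and Kcnc1 at 0.13 (adjusted p = 0.0689) and Kcnv1 at -0.22 (adjusted p = 0.130) were not.

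Genes that work with these channels were examined from a list of 31, of which 29 had enough reads. It holds partners of Kv4, Kv2 and Kv1 channels, sulfonylurea receptors, BK gamma subunits, HCN channels, sodium pumps and chloride cotransporters. None was called in any comparison of 2 groups, and for ethanol over all 16 mice 1 of 29 was called, Abcc8, against 4.50% of all genes. At an unadjusted p-value under 0.05 in Water-Ethanol against WW, 1 was higher and 3 lower, and in NE against WW 4 were higher and 1 lower, against 19.3% and 17.5% of all genes, so the list did not exceed the background. Cntnap2, a Kv1 partner at the axon, was at -0.14 ± 0.05 in Water-Ethanol (adjusted p = 0.135), and Lrrc55, a BK gamma subunit, at -0.23 ± 0.08 (adjusted p = 0.143).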

How the data were processed

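Single-end RNA-seq of 16 whole brains was used. After trimming with Trimmomatic 0.32 and alignment by TopHat2 to GRCm38, the authors deposited whole read counts per gene, not normalized, and FPKM per gene from the Cufflinks tools, 1 column per mouse. The program that made the counts and its strand setting are not given in the sources used here, and the labels name an unstranded library kit where the study's methods name a stranded one, which bears on overlapping genes. Total counts per mouse had a median of 29448284, and precision is set by the 4 mice per group.

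Members were chosen by symbol and mean FPKM, and the members, gene lists and tests were chosen with earlier results of these data known. Counts were tested with R 4.3.3 and edgeR 4.0.16 (quasi-likelihood test, TMM, default filter on low counts), in fits of the 2 groups compared and, for the ethanol, nicotine and interaction effects, of all 16 mice. P-values were adjusted over all genes, with a threshold of 0.05. In all, 8 comparisons were made. An exact permutation test, two-sided, was used for single members. The standard error of a log2 fold change was derived from it and the F statistic. Alternatives were RLE factors, DESeq2 1.42.0, no filter, limma 3.58.1 on log2(FPKM + 1) and log2(FPKM + 0.1), fits of all mice, covariates from marker scores, other FPKM floors, and dropping each mouse in turn. A correction for GC and leaving out both mice of low cerebellum score were added after seeing the data. The tests were checked on simulated data.

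The genes named were those called in any comparison, the 5 of smallest p-value in each, those whose 4 mice lay beyond all WW mice in 2 or more treated groups, the highest of each family by FPKM, those next to the floor, and Kcnt1, Kcnb2 and Kcnd2, which the study names. Other members, markers and partner genes that are named were picked after their values were seen. Gene positions are those of the count table on GRCm38, and sequences are from RefSeq. Some genes under this rule are not reported here, and behavioural measurements were not analysed here.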

Additional observations from a re-analysis of the deposited data

Results flagged for a closer look

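Of 196 groups of 4 mice in 49 named members, 13 had a mouse set apart from the other 3 of its group by Dixon's criterion at the 95% level, which chance gives in about 1 in 20 groups. WW replicate 21, of low cerebellum score, had 4262 normalized counts of Kcnma1 against 5031 to 5091 in the other WW mice, 4507 of Kcnc2 against 4152 to 4206, and 3118 of Kcnh3 against 2456 to 2544. NW replicate 10, the other mouse of low cerebellum score, had 628 normalized counts of Kcng4 against 1257 to 1341 and 113 of Kcnk6 against 94.0 to 96.0. NW replicate 7 had 919.97 normalized counts of Kcnh7 against 1223 to 1271 and 1502 of Kcnq3 against 1772 to 1819, and it was also the lowest NW mouse in Kcnv1, Kcnb2, Kcnh5 and Kcnma1. WW replicate 18 had 1219 normalized counts of Kcns2 against 1108 to 1116 and 10489 of Kcnab2 against 11167 to 11226. Water-Ethanol replicate 15, of low olfactory bulb score, had 16990 normalized counts of Kcna2 against 15859 to 15996 and 3368 of Kcnf1 against 4162 to 4208. Water-Ethanol replicate 13 had 87.9 normalized counts of Kcnk6 against 104 to 106, and NE replicate 3 had 222 of Kcnh4 against 257 to 259. No member had an interaction of nicotine and ethanol past the threshold. The part of these mice in the differences was not tested beyond leaving each one out.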

How the results depend on the processing

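In Water-Ethanol against WW, where 1 member and 70 of all genes were called, DESeq2 called 7 members, no filter on low counts 3, and the cerebellum score as a covariate 2. Limma on FPKM with either pseudocount, the fit of all 16 mice and both marker scores as covariates called 0. Over all genes these fits called, in the same order, 603, 143, 276, 0, 28 and 3, of 15320 to 19878 tested. Leaving out 1 mouse gave 0 to 8 members. There were 8 without WW replicate 21, 2 without WW replicate 18 and 0 without WW replicates 19 and 20 and Water-Ethanol replicates 13, 14 and 15. Over all genes the counts were 797 without WW replicate 21, 84 without WW replicate 18, and 0 or 1 in the fits that called 0 members. In NE against WW, where 0 members and 48 of all genes were called, DESeq2 called 2 members and the cerebellum score as a covariate 1. Leaving out 1 mouse gave 0 to 2, the 2 without WW replicate 21. Over all genes DESeq2 called 517, the covariate fit 256, and the fits without 1 mouse 0 to 283, with 283 without WW replicate 21. In NW against WW, where 0 members were called, the cerebellum score as a covariate gave 2, Kcnd2 and Kcnh4, among 234 of all genes. Leaving out 1 mouse gave 0 members and 0 of all genes. For the ethanol effect, where 4 members and 702 of all genes were called, limma on FPKM gave 2 members with a pseudocount of 1 and 1 with 0.1. Both marker scores as covariates gave 2. Over all genes these 3 fits called 692, 682 and 540. Leaving out 1 mouse gave 0 to 6 members and 280 to 899 of all genes. It gave 0 members without NW replicate 8, Water-Ethanol replicate 15, NE replicate 2 or NE replicate 4, where 304, 307, 343 and 280 of all genes were called. It gave 1 without WW replicate 20, and 2 without WW replicates 18 and 19 and Water-Ethanol replicates 13 and 16. Fits without a mouse have fewer samples, and the cause of the other changes was not tested. In the other 4 comparisons every alternative run gave 0 members. Over all genes the most called there was 197, in NE against NW with the cerebellum score as a covariate. RLE factors, the GC correction and the other FPKM floors stayed within 1.5 times the count in every comparison. No member reversed its direction past the threshold in any of them. No paired analysis was possible because mouse numbers are not shared between groups. With 4 mice per group, a member that missed the threshold is not shown to be unchanged.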
